A study of Bos taurus with 47 samples.

Results

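A set of 174 genes was abundant across the tissues sampled from Holstein cattle. The genes were chosen by their level: an identifier needed at least 100 FPKM, the fragments of a gene scaled by its length in kilobases and by 1000000 fragments of the library, in each of 46 RNA sequencing libraries. The lactating mammary gland was the 1 library that the rule did not read. The rule was passed by 178 of the 24616 identifiers in the deposited table, and 4 of these were left out by the rule itself. The 174 genes were 0.707% of all identifiers and 4.26% of the 4081 identifiers that reached 100 FPKM in at least 1 of the 46 libraries. Just inside the threshold, the lowest values of 3 genes were 100.01, 101 and 101 FPKM. Just outside it, 3 identifiers had lowest values of 99.9, 99.8 and 99.7 FPKM. These levels chose the genes, so they are given as a description with no test.

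The study compared transcriptomes across tissues. Spleen, rumen, muscle, lung, liver, kidney, ileum, heart, frontal cortex and adipose tissue were each sampled from 2 males, called male A and male B here, and 2 females, named here by the stage of their mammary gland as the lactating and the dry cow. This gave 4 libraries per tissue. Uterus and ovary had 2 libraries each, from both cows. Each cow gave 1 mammary gland library and a further male gave 1 lymphocyte library, with no replicate. The labels give no age and no treatment, and all animals were Holstein.

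A small part of the transcriptome is used heavily by nearly every cell. In mammals the best known such transcripts encode the proteins of the ribosome and the factors that work with it, the nuclear-encoded subunits of the respiratory chain and ATP synthase, the cytoskeleton, ferritin and the ubiquitin system. Ribosomal protein transcripts share a terminal oligopyrimidine tract and are regulated together with cell growth, while respiratory chain transcripts follow the oxidative demand of a tissue and are known to be high in heart. The deposited identifiers are not paired with gene names, and none of them matched the gene table used here, so it is not known from these sources which of the 174 identifiers belong to which class. They are described below by their levels and by the tissues in which they move together.

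Summed FPKM ran from 576130 to 964931 per library. The table holds no read counts, so depth in fragments is unknown. The commonest ratio among values under 0.2 FPKM gave a depth of each library relative to the median library, from 0.796 to 1.54. All 44 libraries that have another library of their label had their closest match, by Spearman correlation across genes, within that label. Labels could not be checked against marker genes by name. Relative to their level in liver or rumen, genes restricted to those tissues stood at 0 to 33.3 and 0 to 6.51 per 1000000 in 10 libraries, the lymphocyte library and 9 of the lactating cow. The other 37 libraries had 61.0 to 1340 and 79.6 to 777 per 1000000.

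The level of the 174 genes, as the mean FPKM over the 15 tissue labels, had a median of 813 and ran from 151 to 4975. The sum was spread over many genes, and the 38 most abundant held 50% of it. The 8 most abundant had means of 3259 to 4975 FPKM and together held 15.4% of the sum. In the 46 libraries that the rule read, the lowest library for a gene was most often of frontal cortex (54 genes), muscle (38) or liver (37). It was a library of heart, ileum or ovary for none of the 174. Over the 15 label means, the lactating gland was the lowest label for 77 of them.

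The share of a library that the 174 genes held differed 5.41-fold between the extremes of the 47 libraries. It was 9.31% in the lactating mammary gland and 50.4% in the uterus of the dry cow. Among tissues with 4 libraries it was 37.6% ± 2.0 in rumen, 36.2% ± 0.801 in spleen, 30.9% ± 4.03 in adipose tissue and 30.7% ± 4.75 in ileum. It was 27.6% ± 1.17 in heart, 26.6% ± 2.77 in lung, 23.4% ± 1.5 in kidney, 17.2% ± 0.877 in frontal cortex, 16.1% ± 0.753 in muscle and 15.6% ± 0.823 in liver (SD, n = 4 each). The libraries of liver, muscle and frontal cortex lay between 14.8% and 18.4%, below every library of the other labels but the lactating gland. Muscle overlapped with both liver and frontal cortex, while every liver library lay below every frontal cortex library, with the nearest at 16.35% and 16.36%. Rumen and spleen overlapped. These are values of whole tissues, in which fewer cells of a type and less RNA per cell cannot be told apart.

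**Figure D1:**
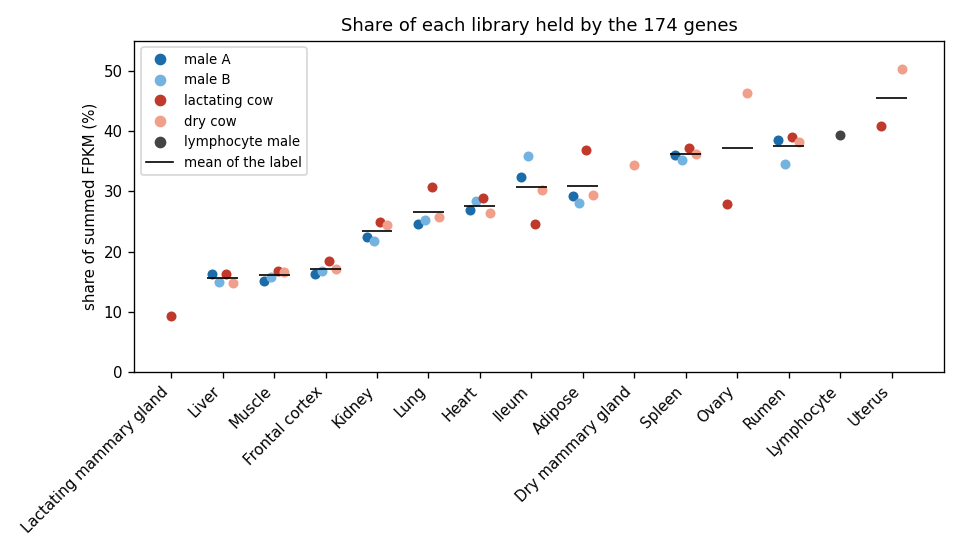
Share of the summed FPKM (%, vertical axis) held by the 174 genes in each of the 47 libraries, by tissue label in order of the mean. Points are libraries coloured by animal, and bars are label means. Liver, muscle and frontal cortex lie between 14.8% and 18.4%, and both uterus libraries, at 40.8% and 50.4%, lie high.

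In the tissues with 1 or 2 libraries, the share was 40.8% and 50.4% in the uteri of the lactating cow and the dry cow and 28.0% and 46.3% in their ovaries. The lymphocyte library had 39.3% and the dry mammary gland 34.4%. The gap between the 2 ovaries, 18.4 percentage points, was wider than the range of each tissue with 4 libraries. FPKM are relative within a library, so the leading other identifiers were also summed. The 10 most abundant identifiers outside the set held 75.5% of the lactating gland, 33.8% ± 0.180 of muscle, 22.6% ± 2.34 of heart, 17.9% ± 0.866 of liver and 15.3% ± 2.13 of rumen (SD, n = 4 each), against 4.04% of the lymphocyte library. Of the FPKM outside those 10 identifiers, the 174 genes held 38.0% in the lactating gland, 24.3% ± 1.08 in muscle, 35.7% ± 1.09 in heart, 19.1% ± 1.18 in liver and 44.4% ± 2.14 in rumen. Frontal cortex, with 7.63% ± 1.34 in its 10 leading other identifiers, stayed low at 18.6% ± 0.876.

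To ask which tissues raise or lower these genes, each label with 2 or more libraries was compared with the mean of the other 14 labels, across 16634 genes. A gene was called where it differed at least 2-fold, which is 1 in log2(FPKM + 1), with an adjusted p under 0.05 (limma, Benjamini-Hochberg adjustment over all genes). The rule that chose the genes reads 46 libraries alike and no tissue label. It read the same FPKM values, though, and kept out every gene that falls near 0 in any of these libraries. Other genes tested could fall that far, so the shares called, set beside those of all genes, are not independent of the rule. Of the 174 genes, 156 were called in at least 1 of the 12 labels, 115 of them higher in at least 1 label and lower in another, and 18 were called in none. These counts were not made over all genes tested, so they do not set the 174 genes apart.

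At the deposited scaling, uterus, rumen and heart raised many of the 174 genes. In uterus 75 (43.1%) were higher and 4 lower, against 11.2% and 5.81% of all genes tested. In rumen 54 (31.0%) were higher and 2 lower, against 9.13% and 11.7%. In heart 43 (24.7%) were higher and 3 lower, against 9.07% and 23.1%. The median difference of the 174 genes was 0.78 in uterus, 0.78 in rumen and 0.16 in heart on the log2 scale, against 0.04, -0.24 and -0.49 over all genes. The uterus and rumen counts changed with the scaling. Quantile normalization brought the medians over all genes to between -0.26 and -0.04. It left 13 genes higher in uterus, 6 in rumen and 30 in heart, with 3, 8 and 14 lower. Rescaling each library to the same sum left 67, 25 and 37 higher and 4, 5 and 8 lower. Shares of all genes called were not counted under these scalings. The median of the 174 genes stayed above 0 in uterus and rumen under both scalings, at 0.44 and 0.29 after quantile normalization, and fell below 0 in heart, to -0.23 after rescaling and -0.45 after quantile normalization. Without the dry cow no rumen gene was called lower.

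**Figure D2:**
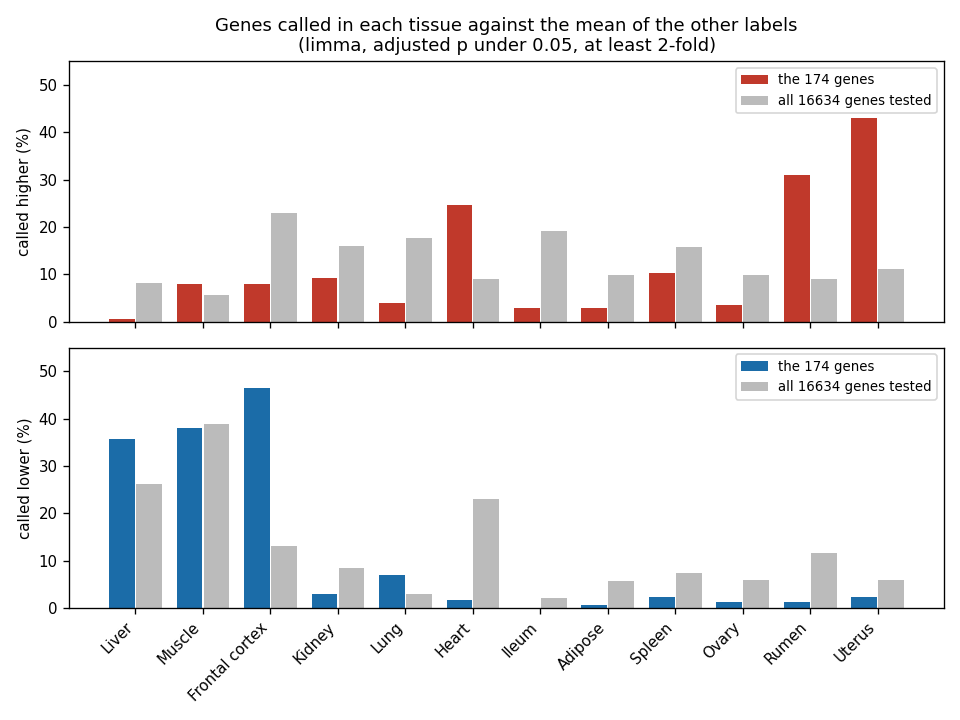
Percentage of genes called higher (upper panel) and lower (lower panel) in each of 12 tissue labels against the mean of the other labels (limma, adjusted p under 0.05 and at least 2-fold). Coloured bars are the 174 genes and grey bars all 16634 genes tested. The coloured bars exceed the grey ones for uterus, rumen, heart and muscle above, and for frontal cortex, liver and lung below.

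Frontal cortex lowered the most of these genes. There 81 (46.6%) were lower and 14 (8.05%) higher, against 13.1% and 23% of all genes. In liver 62 (35.6%) were lower and 1 higher, against 26.2% and 8.28%. In muscle 66 (37.9%) were lower and 14 higher, against 38.8% and 5.66%, so the share of lower genes was close to that of all genes. The median difference was -0.92 in frontal cortex, -0.86 in liver and -0.81 in muscle, against 0.08, -0.60 and -0.76 over all genes. After quantile normalization 42 genes were lower in frontal cortex, 83 in liver and 43 in muscle, and after rescaling 56, 45 and 67. The matching shares of all genes were not counted. The medians of the 174 genes stayed below 0 in these tissues under both scalings. Without the lactating cow the genes higher in frontal cortex numbered 9.

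The other 6 labels called fewer of the genes. In spleen 18 were higher and 4 lower (15.7% and 7.3% of all genes), in kidney 16 and 5 (16.1% and 8.42%), in lung 7 and 12 (17.6% and 2.88%), in adipose tissue 5 and 1 (9.99% and 5.67%), and in ileum 5 and none (19.1% and 2.1%). With no minimum difference, 12 genes were lower in ileum at an unadjusted p under 0.05 (limma). Of these, 11 also had an adjusted p under 0.05, and all fell short of the 2-fold minimum. The same count was not made over all genes. Without the lactating cow spleen had 10 higher, kidney 10 lower and adipose tissue 2 lower, and without the dry cow kidney had 3 lower and adipose tissue none. Ovary had 6 higher and 2 lower (9.96% and 5.81% of all genes). Without all libraries of either cow, ovary has 1 library, so no count is given. The median ovary difference of the 174 genes was 0.66 with both cows. It was 0.84 without the lactating cow and 0.35 without the dry cow. With the animal as a block, in a fit without the lymphocyte library, ovary had no lower gene, adipose tissue 2 and rumen 1. All labels share 1 estimate of the spread per gene, and ovary and uterus, with 2 libraries each, add little to it.

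The 174 genes did not move as a single block. Their label means on the log2 scale were correlated over the 15 labels, and genes were joined by average linkage down to a mean correlation of 0.5, which gave 10 groups. The largest held 93 genes (group 1), the second 46 (group 2), and the remaining 35 fell into groups of 12, 7 and 5 or fewer. Pairs within group 1 had a median Pearson r of 0.92 over the 15 labels, pairs within group 2 of 0.76, and pairs between them of 0.06, against 0.19 over all pairs of genes tested. The groups were formed from these label means. The correlations within them, and their values and calls by tissue, are therefore a description. After rescaling, the matching groups held 94 and 45 genes, 90 and 43 of them shared with the groups above. After quantile normalization they held 90 and 31, with 85 and 31 shared.

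**Figure D3:**
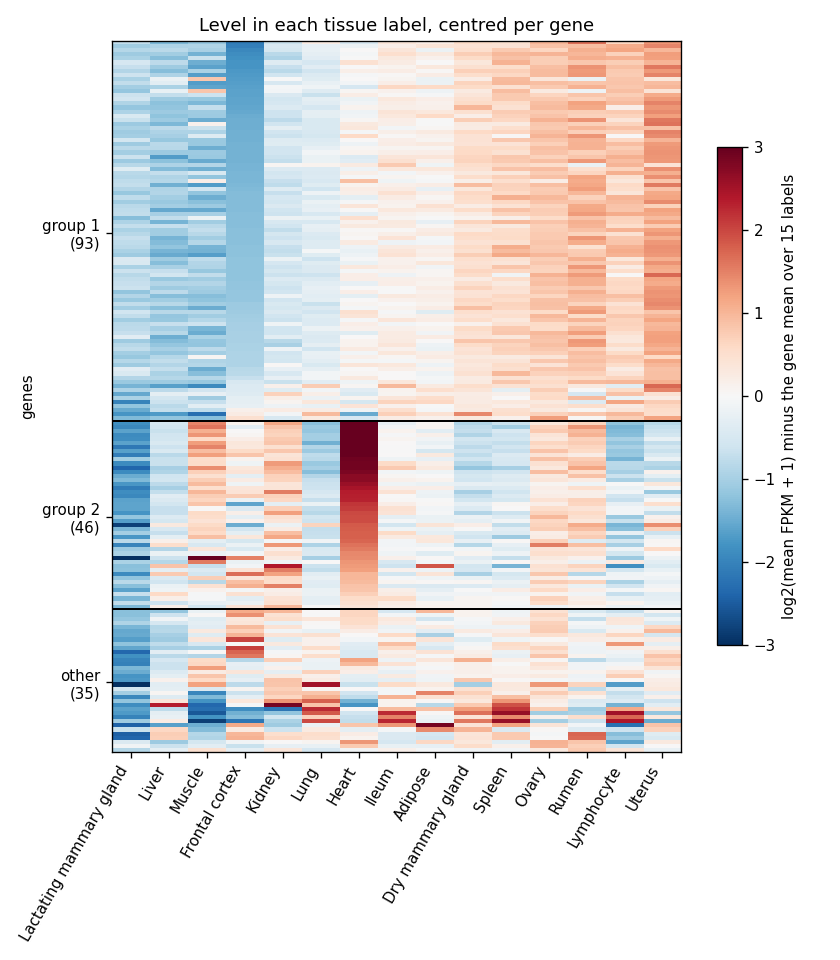
Level of each of the 174 genes (rows) in the 15 tissue labels (columns, in order of their share), as log2(mean FPKM + 1) minus the gene's mean over the labels, on a colour scale from -3 to 3. The horizontal lines separate group 1 (93 genes), group 2 (46) and the 35 others. Group 1 is pale or blue on the left and red on the right, and group 2 is darkest in heart.

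Group 1 carried most of the sum. It made up 70.2% of the FPKM of the 174 genes on average over the libraries, and 7 of the 8 most abundant genes belonged to it. Its share of the library was 35.1% and 45.6% in the 2 uteri, 31.4% ± 1.95 in rumen, 27.9% ± 1.12 in spleen, 23.2% ± 4.36 in adipose tissue and 23.0% ± 4.41 in ileum. It was 17.6% ± 1.99 in lung, 15.4% ± 1.37 in heart, 14.7% ± 1.67 in kidney, 10.2% ± 0.779 in muscle, 10.1% ± 0.523 in liver and 9.69% ± 0.646 in frontal cortex (SD, n = 4 each except uterus). The lymphocyte library had 32.8%. The highest label was uterus for 60 of the 93 genes and rumen for 21. Without the lactating gland, the lowest label was frontal cortex for 52, muscle for 27 and liver for 13.

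By the test of each tissue, group 1 supplied most of the higher calls in uterus and rumen and of the lower calls in frontal cortex, liver and muscle. It held 73 of the 75 genes higher in uterus, 47 of the 54 higher in rumen, 75 of the 81 lower in frontal cortex, 54 of the 62 lower in liver and 55 of the 66 lower in muscle. No gene of group 1 was called higher in heart, or in frontal cortex, where 14 of the 174 genes were. The group was formed from the same label means, so these counts describe it. The fitted difference from the mean of the other labels was above 0 for all 93 in uterus and in ovary, and below 0 for all 93 in liver. The median difference of the group was 1.27 in uterus, 1.0 in rumen, 0.73 in ovary, 0.62 in spleen, -0.56 in kidney, -1.07 in liver, -1.11 in muscle and -1.34 in frontal cortex. Under both other scalings these medians kept their sign. In heart the median was 0.03, and turned to -0.36 after rescaling and -0.59 after quantile normalization.

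The most abundant of the 174 genes, a member of group 1, had a mean of 4975 FPKM over the labels and its lowest value in a frontal cortex library, 1535 FPKM. It was highest in rumen and lowest in frontal cortex, with a range of 2.47 on the log2 scale. The gene of group 1 with the largest rise in uterus had 3176 and 4650 FPKM in the uteri of the lactating cow and the dry cow, above every other library (269 to 2724 FPKM), a difference of 1.83 ± 0.16 (SE, limma adjusted p = 6.946e-12). The largest fall of a group 1 gene in liver brought it to 249 FPKM ± 57.5 (SD, n = 4), against a mean of 1029 in the other libraries, a difference of -1.84 ± 0.13 (SE, limma adjusted p = 3.086e-15). Its liver libraries, at 210 to 335 FPKM, overlapped with the other libraries, which reached down to 136 FPKM.

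Group 2 was highest in heart. Its 46 genes held 10.01% ± 0.670 of the heart libraries, 4.56% ± 0.129 of kidney, 4.13% ± 0.0924 of muscle, 3.26% ± 0.226 of frontal cortex, 3.23% ± 0.922 of adipose tissue and 3.20% ± 0.135 of rumen. They held 2.70% ± 0.201 of ileum, 2.22% ± 0.151 of liver, 2.11% ± 0.158 of lung and 1.83% ± 0.0545 of spleen (SD, n = 4 each). In heart 40 of the 46 were called higher, with a median difference of 2.12. All 4 heart libraries lay above all 43 other libraries for 31 of the 46, for 32 of the 174 genes and for 3% of all genes tested. The group was formed from label means that include heart, so its counts by tissue describe it and are not a test of it. The heart median was 1.73 after rescaling and 1.29 after quantile normalization. Kidney called 13 of the 46 higher and none lower, muscle 12 and none, and lung 12 lower and none higher. The medians in kidney, muscle and lung were 0.74, 0.63 and -0.72, with the same signs under both other scalings.

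The 2 largest rises among all calls of the 174 genes were heart rises of group 2 genes. ENSBTAG00000008692 had 4097 and 3540 FPKM in the hearts of males A and B and 4489 and 4131 FPKM in those of the lactating cow and the dry cow. It had 796 to 943 FPKM in muscle, the next highest label, 615 to 790 in kidney and 457 to 523 in rumen, and 111 to 168 in lung, 137 in the lymphocyte library and 87.6 in the lactating gland. All 4 heart libraries lay above the other 43, and the difference was 3.95 ± 0.15 on the log2 scale (SE, limma adjusted p = 6.856e-23).

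ENSBTAG00000000913 was also highest in heart, with muscle next, but was higher in rumen than in kidney. It had 3114 and 2939 FPKM in the hearts of males A and B and 3878 and 3019 FPKM in those of the lactating cow and the dry cow. Muscle followed with 750 to 987 FPKM, rumen with 677 to 728 and kidney with 482 to 531, and the lymphocyte library had 108. Heart stood apart from all other libraries here too, with a difference of 3.76 ± 0.15 (SE, limma adjusted p = 1.421e-22). In adipose tissue the gene ran from 164 to 459 FPKM. Group 2 also held the gene with the largest rise in muscle, with 2274 FPKM ± 412 there (SD, n = 4), against a mean of 302 elsewhere, a difference of 3.41 ± 0.12 (SE, limma adjusted p = 6.460e-25).

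**Figure D4:**
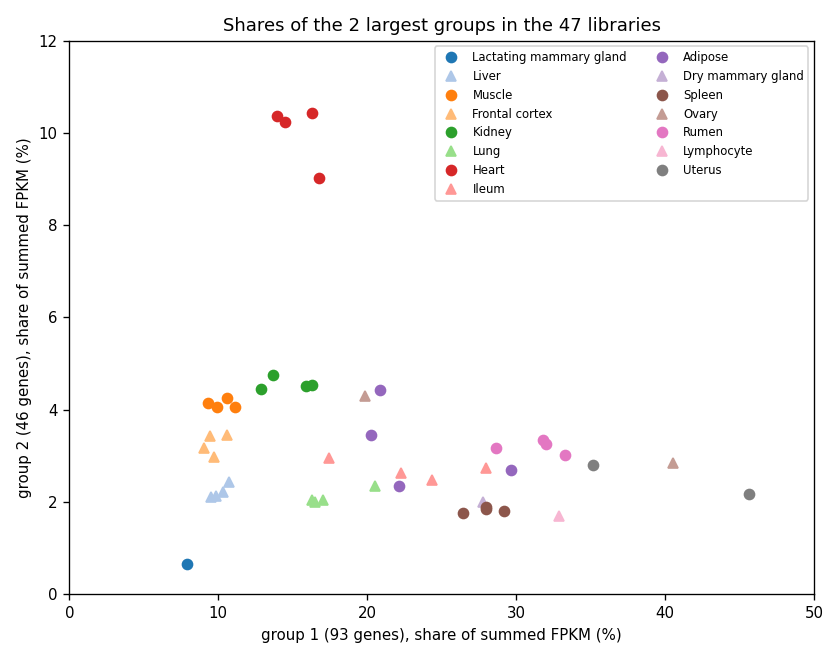
Share of the summed FPKM held by group 1 (93 genes, horizontal axis) and by group 2 (46 genes, vertical axis) in each of the 47 libraries, with a symbol per tissue label. The 4 heart libraries stand at 9.02% to 10.4% for group 2, while all other libraries lie at or below 4.75% for it, and group 1 runs from 7.90% in the lactating gland to 45.6% in a uterus.

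The 35 genes outside both groups peaked in various tissues, with 8 of them highest in frontal cortex, 5 in heart and 5 in lung. A group of 12 genes was highest in frontal cortex, 1.11 above its own mean over the labels on the log2 scale, and lowest in the lactating gland (-1.46) and liver (-0.75). Of the 14 genes called higher in frontal cortex, 11 lay outside groups 1 and 2. The largest such rise was to 1480 FPKM ± 179 in frontal cortex (SD, n = 4), against a mean of 343 in the other libraries, a difference of 2.23 ± 0.13 (SE, limma adjusted p = 2.216e-18). A group of 5 genes was highest in kidney (1.29) and lowest in muscle (-1.56). Its leading gene had 7124 FPKM ± 700 in kidney and 4991 ± 777 in liver, against 283 ± 63.9 in heart (SD, n = 4 each).

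A group of 4 genes was high in spleen, lymphocytes, ileum and lung. It stood 2.21 above its own mean over the labels in spleen, 1.97 in the lymphocyte library, 1.74 in ileum, 1.69 in lung and 1.24 in the dry mammary gland, and -2.35 in muscle and -1.67 in frontal cortex. The 2 largest falls among all calls were muscle falls of genes in this group.

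ENSBTAG00000010645 had 204 and 234 FPKM in the muscles of males A and B and 156 and 123 FPKM in those of the lactating cow and the dry cow. It had 6987 to 8700 FPKM in spleen, 6798 in the lymphocyte library, 4811 to 7401 in ileum, 3932 to 6707 in lung and 3810 in the dry mammary gland, against 257 to 323 in frontal cortex. The muscle libraries lay below all others, with a difference of -3.03 ± 0.22 (SE, limma adjusted p = 1.074e-14). ENSBTAG00000015228 had 173 and 216 FPKM in the muscles of the males and 165 and 161 FPKM in those of the lactating cow and the dry cow. It had 6131 to 7008 FPKM in spleen, 6051 in the lymphocyte library, 3128 to 5921 in ileum and 3141 to 4161 in lung. Its muscle difference was -2.71 ± 0.19 (SE, limma adjusted p = 3.803e-15). For both genes, every muscle library lay below every library of spleen, ileum and lung.

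A pair of genes outside both groups had nearly the same profile, with an r of 0.997 over the labels. The more abundant gene had 4.46 to 6.13 times the FPKM of its partner in every library, with a median of 5.37, and both were highest in rumen, at 7794 and 1420 FPKM on average. Whether this pair shares reads, as near-identical copies would, cannot be told from the deposited values, so both levels are uncertain.

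The same genes also moved together between libraries of a single tissue, which the groups had not used. For the 12 labels with 2 or more libraries, the deviation of each of the 44 libraries from its label mean was taken, and genes were correlated over these deviations. Pairs within group 1 had a median r of 0.83, and 98.4% of the 4278 pairs were above 0. Pairs within group 2 had a median of 0.53, with 94.7% of 1035 pairs above 0. Pairs between the groups had a median of -0.03, and all pairs of genes tested a median of 0.05. With libraries rescaled to the same sum, the medians were 0.76, 0.48 and -0.27. These correlations are descriptions over libraries that share animals and the total of each library, and carry no p.

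**Figure D5:**
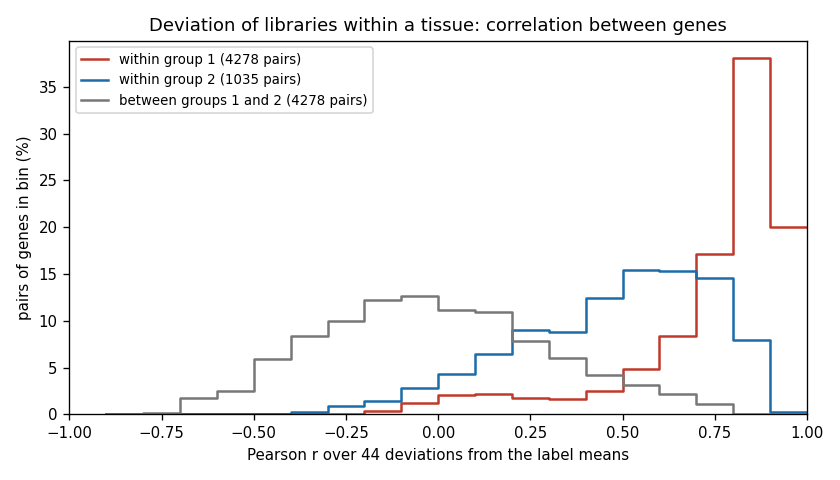
Distribution of Pearson r between pairs of genes over the 44 deviations of libraries from their label mean, as the percentage of pairs per bin of 0.1. Pairs within group 1 pile up near their median of 0.83, pairs within group 2 spread around 0.53, and pairs between the groups spread around -0.03.

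Such shared deviations were seen in the ovary, uterus, adipose and ileum libraries. Of the 93 genes of group 1, 92 were higher in the ovary of the dry cow than in that of the lactating cow, and 88 were higher in its uterus. Of the 46 genes of group 2, 6 and 18 were. Group 1 thus held 40.5% of the ovary library of the dry cow and 19.9% of that of the lactating cow, while group 2 held 2.84% and 4.30%. In adipose tissue, 92 of the 93 genes of group 1 were higher in the lactating cow than in the dry cow, with shares of 29.7% and 22.1%, and so were 44 of the 46 genes of group 2. Each of these counts sets 1 library beside 1 other, and the genes are not replicates. The same counts were not made over all genes tested, and the libraries compared differ in summed FPKM. In ileum the library of the lactating cow was the lowest, with 17.4% in group 1, against 22.3% to 28.0% in the other 3. The libraries of ovary, uterus, adipose tissue and ileum of the lactating cow are among the 10 with few traces of other tissues, and the part of that difference between libraries in these results was not tested.

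The levels of the 174 genes were not even across tissues. Their range between the highest and the lowest of the 15 label means had a median of 2.73 on the log2 scale (1.26 to 6.22), against 3.12 over all genes tested. Without the lactating gland, the range over 14 labels had a median of 2.64 (0.986 to 5.47), against 2.96 over all genes tested. The rule held the 174 genes at 100 FPKM or more in these 14 labels, while other genes could fall lower. The comparisons of range, spread and variance with all genes are therefore not independent of the rule. A range of at least 4, or 16-fold, over the 15 labels was found for 31 of the 174. That count was not made over all genes. Group 1 ranged by 1.78 to 3.74 and group 2 by 1.26 to 6.22, and without the lactating gland by 1.26 to 3.74 and 0.986 to 4.93. The spread between libraries of a label had a median SD of 0.26 for the 174 genes and of 0.26 for all genes tested. In the 40 libraries from the tissues that all 4 animals share, the median part of a gene's variance that lay between tissues was 93.5% and that between animals 1.61%, against 93.3% and 1.03% for all genes tested. The steadiest gene, in group 2, averaged 207 FPKM over the labels with a range of 1.26. The least steady, also in group 2, averaged 403 FPKM with a range of 6.22, from 2274 FPKM in muscle to 29.1 in the lactating gland.

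The lactating gland was set beside the dry gland, the only label pair that differs by stage. The lactating library was not used by the rule, and 137 of the 174 genes reached 100 FPKM in it. The rule did read the dry library, where all 174 had to reach 100 FPKM, so the choice favours genes lower in the lactating gland. This was the case for 90 of 93 genes of group 1 and 23 of 46 of group 2. At the deposited scaling all 174 were lower in the lactating gland, by a log2 ratio of -3.34 to -0.44 with a median of -1.33. The share of all genes lower by any amount was not counted. None was at least 2-fold higher and 135 (77.6%) were at least 2-fold lower, against 1.9% and 76.8% of 13002 genes, whose median was -1.50. The count of lower genes was close to that of all genes at this scaling. After rescaling to the same sum 173 (99.4%) were at least 2-fold lower, against 89.1% of all genes. Group 1 had 80 of 93 at least 2-fold lower and group 2 25 of 46. After quantile normalization, which moved the median of all genes to -0.03, the median of the 174 genes was -0.03, and 16 (9.20%) were at least 2-fold lower, against 14.2% of all genes. Each gland is 1 library of 1 cow, so stage and animal cannot be told apart, and there is no test.

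Males and females were compared on the mean of the 10 shared tissues in each animal, with 2 animals per sex. None of the 174 genes was called in either direction (limma, adjusted p under 0.05 over 16503 genes), against 0.733% of all genes for males higher and 0.127% for females higher. The smallest adjusted p among the 174 was 0.1011. At an unadjusted p under 0.05 there were 19 (10.9%), 5 higher in males and 14 higher in females, against 22.1% of all genes. The male minus female difference had a median of -0.11 over the 174 genes and ran from -0.36 to 0.42, against a median of 0.05 over all genes. After quantile normalization 1 gene was called higher in males.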

How the data were processed

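RNA of 15 tissue labels from 5 Holstein animals was sequenced in 47 libraries. Per the labels' protocols, reads were paired and 150 bases long. Tools listed in the submitters' processing notes are Cufflinks, STAR and Trimmomatic 0.39, with the assembly UMD 3.1 and no settings. The authors deposited FPKM per identifier. The table has 51 columns, of which 47 matched a sample by name and 4 matched none and were not used. FPKM are not counts, so fragment depth is unknown and no counting interval was computed.

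The genes and lists were chosen with earlier results of these data known. Values were tested as log2(FPKM + 1), which understates changes of low genes, with limma 3.58.1 (R 4.3.3, intensity trend) among identifiers that reached 1 FPKM in 2 or more libraries. Python 3.11.15, numpy 2.4.6, pandas 2.3.3, scipy 1.17.1 and matplotlib 3.10.9 were used for the rest. The scripts were tested on simulated data. Separate collection of replicates is not stated beyond the animal. Tissue p-values rest on the spread between animals within labels, as 1 estimate per gene shared by all labels. The main fit held no animal block, so libraries of 1 animal from different tissues were treated as independent. The sex comparison used animal means.

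The genes described are the 8 most abundant, those with the widest and narrowest ranges over labels, the largest called rise and fall in each of 12 labels, and those next to the threshold. Since 0 identifiers matched a name, they are described by rank, and identifiers are printed only for the 2 genes with the largest called rises and the 2 with the largest called falls. The pair with a nearly constant ratio and the lactating cow's library contrasts were chosen after their values were seen. Marker and pathway lists could not be applied. Alternatives were the pseudocount, the filter, rescaling, quantile normalization, the minimum FPKM, left-out libraries and an animal block. Libraries of the same animal from different tissues deviated together, with a median correlation of 0.182 over 180 pairs, against -0.063 over 540 pairs of different animals. The numbers in the titles identify the animals.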

Additional observations from a re-analysis of the deposited data

Results flagged for a closer look

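A library stood far from the other 3 of its tissue, by Dixon's gap, in 8 of 80 checks, 6 of them among 40 checks of shares, where chance gives about 1 in 20. In adipose tissue the 174 genes held 36.9% of the library of the lactating cow, above the other 3 animals. In lung, the same cow was above the others with 20.5% for group 1, 2.34% for group 2 and 147 FPKM of ENSBTAG00000000913. These libraries are among the 10 with few traces of liver and rumen genes, and the part of this in the values was not tested. Male B was low for group 2 in heart, with 9.02%. Its share in the 35 genes outside both groups stood apart in kidney, at 4.45%, and in spleen, at 7.10%. ENSBTAG00000010645 had 2482 FPKM in the liver of male A, above the other 3 livers.

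The order of the sexes in the share of the 174 genes was not the same in all tissues. Both males lay above both females in ileum, with means of 34.1% and 27.3%, a male minus female difference of 6.76 percentage points. Both males lay below both females in adipose tissue (-4.41), lung (-3.29), kidney (-2.52), muscle (-1.22), frontal cortex (-1.13) and spleen (-1.07). The gap was narrow in adipose tissue, with 29.286% in male A, 29.311% in the dry cow and 36.9% in the lactating cow. In lung it was 25.2% in male B, 25.8% in the dry cow and 30.7% in the lactating cow. Apart from muscle, the lactating cow's libraries of these 7 tissues are among the 10 with few traces, and the part of that was not tested. The sexes overlapped in heart, liver and rumen. With 2 animals per sex, the difference between tissues was not tested.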

How the results depend on the processing

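Of 379 alternative values for 46 counts and shares, 316 stayed within 1.5 times the count or within 1 SD of the share, and 63 moved. The cause was not tested. Apart from the comparison of the glands, the shares of all genes called were not counted under the alternatives. Rescaling libraries to the same sum gave 0 genes lower in adipose tissue, 8 in heart, 2 in kidney, 4 in lung and 5 in rumen, and 2 higher in liver, 25 in rumen and 11 in spleen. Quantile normalization gave 2 lower in adipose tissue, 42 in frontal cortex, 14 in heart, 9 in kidney, 43 in muscle, 8 in rumen and 16 in the lactating gland, and 13 higher in lung, 6 in rumen, 5 in spleen, 13 in uterus and 1 in males. The animal as a replicate block, without the lymphocyte library, gave 2 lower in adipose tissue, 0 in ovary and 1 in rumen, and moved no other count by over 1.5 times.

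Leaving out the lymphocyte library and both glands gave 2 lower in adipose tissue, 5 in heart, 22 in lung, 0 in ovary, 10 in spleen and 11 in uterus, and 9 higher in frontal cortex, 10 in kidney and 9 in muscle. Both further omissions were chosen after seeing the data. Without the lymphocyte library alone there were 2 lower in adipose tissue, 3 in kidney, 0 in ovary and 1 in rumen, and 11 higher in ovary. Without the 10 libraries with few traces there were 8 higher in ileum and 84 in ovary, and 0 lower in ovary and 1 in rumen.

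Without each animal in turn, 10 of 148 values moved. Lower genes numbered 0 to 2 in adipose tissue, 3 to 10 in kidney, 1 to 2 in ovary and 0 to 2 in rumen, and higher genes 9 to 15 in frontal cortex, 6 to 78 in ovary and 10 to 24 in spleen. The rule gave 390 genes at a minimum of 50 FPKM, 93 at 200 and 270 at 100 after rescaling. Without the 10 leading other identifiers the share was 36.7% in the dry gland, 18.6% in frontal cortex, 35.7% in heart, 38.0% in the lactating gland, 19.1% in liver, 41.0% in lymphocytes, 24.3% in muscle, 44.4% in rumen and 40.3% in spleen. Unknown fragment depth, 2 animals per sex and single gland libraries limit these results.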
